A study of Mus musculus with 15 samples.

Results

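Mitochondria carry their own ribosome, the mitoribosome, which translates the few messages of the mitochondrial genome into core subunits of the respiratory chain. Its RNAs are transcribed inside the organelle, whereas its proteins are encoded in the nucleus, made in the cytosol and imported. The mitoribosome has a large subunit, which forms peptide bonds, and a small subunit, which reads the message. Some of its proteins descend from bacterial ribosomal proteins and the others were added in the mitochondrial lineage. T cells that leave quiescence enlarge their mitochondria, and mitochondrial translation is part of that growth.

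The genes described here are those whose symbol starts with Mrpl or Mrps followed by a number, which names mitochondrial ribosomal proteins, and whose mean reached 1 FPKM in at least 1 of 5 cell populations. FPKM counts fragments relative to transcript length and to all fragments mapped, so levels of different genes can be set side by side. The rule found 76 genes among 23284 entries, all 76 passed the level minimum, and none was at 0 in any library. By the known structure of the particle, 49 belong to the large subunit and 26 to the small subunit. The large subunit group includes Mrps30 and Mrps18a, which carry small subunit names. The remaining gene, Mrps36, is named as a ribosomal protein but is now known as a subunit of the 2-oxoglutarate dehydrogenase complex. Of the 76 genes, 46 were classed as having a bacterial counterpart of their own and 28 as specific to mitochondria. They lie on 17 chromosomes.

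RNA was sequenced from CD8 T cells of OT-I mice, whose transgenic receptor recognises the ovalbumin peptide SIINFEKL. Negatively selected cells were stimulated with bone marrow dendritic cells carrying that peptide and grown for 14 days with IL-2, a T cell growth factor, or with a cocktail of the cytokines IL-7 and IL-21, of 2-deoxyglucose, which blocks glycolysis, and of TWS119, an inhibitor of glycogen synthase kinase 3. CD44+CD62L- cells were sorted from the IL-2 culture (IL-2 cells), and the cocktail culture gave CD44+CD62L- cells, CD44+CD62L+ cells and CD44loCD62L+ cells. The comparison population was uncultured naive OT-I cells, labelled CD44loCD62L+ on each sample and CD44-CD62L+ in the design text. CD44 is raised on antigen-experienced T cells and CD62L guides cells into lymph nodes. Each population gave 3 libraries, described as technical replicates of its RNA, so every p-value below measures the spread between libraries and not that between mice or cultures. Cultured and uncultured cells differ in culture, stimulation and time together, and these cannot be told apart.

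No 2 libraries were identical and none stood apart from its population. The number of reads behind a value is unknown. CD8 T cell markers (7 of 8 were in the table) summed to 3762 to 3779 FPKM in the naive, 2569.7 to 2835 in the cocktail and 2279.8 to 2303 in the IL-2 libraries, and Cd8a, Cd8b1 and Cd2 fell in the IL-2 cells, by 1.09, 2.01 and 0.71 on the log2 scale. The summed levels of B cell markers, of dendritic cell and macrophage markers and of erythroid, platelet and neutrophil markers were highest in the naive libraries. B cell markers (6 genes) summed to 40.2 to 41.7 FPKM there, to 5.94 to 6.75 in the IL-2 libraries and to at most 3.06 in the cocktail libraries, and all 6 fell in the IL-2 cells. Dendritic cell and macrophage markers (12 genes) summed to 106 to 110.3 FPKM in the naive, 48.0 to 57.4 in the cocktail and 6.64 to 7.20 in the IL-2 libraries. Of the 7 that could be tested, 5 fell and 1, Itgax, rose in the IL-2 cells. Markers of erythroid cells, platelets and neutrophils (8 genes) summed to 26.3 to 31.2 FPKM in the naive libraries and to at most 5.42 in the others, and 3 of the 4 tested fell in the IL-2 cells. Natural killer cell markers (4 genes) summed to 23.9 to 24.4 FPKM in the naive, 29.7 to 43.2 in the cocktail and 12.99 to 13.9 in the IL-2 libraries. Most of the sum in naive and IL-2 cells was Eomes, at 19.6 and 10.3 FPKM, and Ncr1 reached a mean of 1 FPKM in no population. Klrb1c rose and Tyrobp and Eomes fell in the IL-2 cells. CD4 T cell markers (4 genes) were highest in the IL-2 libraries, at 16.5 to 17.4 FPKM. They summed to 7.74 to 9.41 in the naive and 8.14 to 11.45 in the cocktail libraries. Most of the sum in IL-2 cells was Zbtb7b, and Cd4 itself reached a mean of 1 FPKM in no population. Of the 3 tested, Zbtb7b (3.70 on the log2 scale) and Foxp3 (1.11) rose in the IL-2 cells while Cd40lg fell. Ms4a1, Pax5 and Ngp were listed at 0 in every IL-2 library. The part of these markers in the differences from naive cells below was not tested.

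Transcription of mitochondrial ribosomal protein genes is carried out by the nuclear machinery, so their own promoters are the regulatory sequence the files allow to be shown. The reference table of RefSeq promoters (GRCm38.p6, the assembly known as mm10) held 67 of the 76 genes, and the 250 bases before each listed start were searched on both strands for 7 short motifs, none of which contains another. A gene counted as a match if any of its listed starts held the motif. The motif CCGGAAG, bound by ETS factors including GABP, was found at 17 of the 67 genes (25.4%). The share was 17.1% of the 8009 genes tested that had a listed promoter, and 7.83% of all 27025 genes with a listed promoter. Shares of these sets are given in that order below. GCGCATG, the core of the NRF1 site, was found at 8 genes (11.9%, against 7.09% and 3.68%). NRF1 is an activator of nuclear genes for mitochondrial proteins. AAGATGG, the core of the YY1 site, was found at 6 genes (8.96%, against 5.23% and 5.18%). The E-box CACGTG, which Myc and other factors bind, was found at 5 genes (7.46%, against 10.2% and 6.86%). GGGCGG, a site of SP factors, was found at 47.8% of the genes, against 64.4% and 35.4%. CCAAT was found at 37.3%, against 41.0% and 37.5%, and TATAAA at 7.46%, against 7.48% and 14.3%. A match describes letters only, and was not tested as a binding site.

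The promoters of 5 genes are shown because their genes follow the main patterns described below. They were chosen after the values were seen, among starts with no annotated exon in the window. Mrpl20, Mrpl42 and Mrps22 were highest in the IL-2 cells, whereas Mrpl52 was lowest there among the cultured cells and Mrps16 stood between 196 and 225 FPKM in every cultured library. Capitals mark every match to the 7 motifs. The stretches lie at chr4:155802628-155802877 (+ strand) for Mrpl20, chr10:95501950-95502199 (- strand) for Mrpl42, chr9:98601680-98601929 (- strand) for Mrps22, chr14:54426659-54426908 (+ strand) for Mrpl52 and chr14:20393635-20393884 (- strand) for Mrps16, each ending at the base before a RefSeq start.
Mrpl20: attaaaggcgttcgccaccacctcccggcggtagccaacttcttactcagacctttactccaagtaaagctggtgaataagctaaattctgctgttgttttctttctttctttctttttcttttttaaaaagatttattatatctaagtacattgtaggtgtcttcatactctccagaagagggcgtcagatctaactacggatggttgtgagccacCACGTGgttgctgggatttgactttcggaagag
Mrpl42: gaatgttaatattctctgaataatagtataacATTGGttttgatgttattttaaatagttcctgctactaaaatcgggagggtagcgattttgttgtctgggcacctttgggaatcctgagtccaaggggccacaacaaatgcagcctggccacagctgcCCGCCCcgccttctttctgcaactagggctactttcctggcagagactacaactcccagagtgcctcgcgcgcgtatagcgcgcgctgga
Mrps22: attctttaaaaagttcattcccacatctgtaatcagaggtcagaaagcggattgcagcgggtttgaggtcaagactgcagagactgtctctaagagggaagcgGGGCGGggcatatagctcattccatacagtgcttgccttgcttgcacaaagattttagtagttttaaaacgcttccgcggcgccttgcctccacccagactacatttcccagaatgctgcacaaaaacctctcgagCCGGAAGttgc
Mrpl52: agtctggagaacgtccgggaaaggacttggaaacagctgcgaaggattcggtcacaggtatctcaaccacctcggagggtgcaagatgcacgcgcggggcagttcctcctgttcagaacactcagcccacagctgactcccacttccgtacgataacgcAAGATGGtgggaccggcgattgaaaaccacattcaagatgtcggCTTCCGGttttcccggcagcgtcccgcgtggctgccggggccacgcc
Mrps16: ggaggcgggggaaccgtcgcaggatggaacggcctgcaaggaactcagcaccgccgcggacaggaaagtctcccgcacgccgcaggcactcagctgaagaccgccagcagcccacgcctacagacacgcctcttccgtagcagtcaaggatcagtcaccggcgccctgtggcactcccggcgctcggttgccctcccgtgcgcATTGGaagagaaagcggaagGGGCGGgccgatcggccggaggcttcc
The Mrpl20 stretch holds the E-box and none of the others. The Mrps22 stretch holds the ETS motif directly before its start and an SP motif farther up. The Mrpl52 stretch holds the ETS motif and the YY1 core. Mrpl42 and Mrps16 each hold a CCAAT motif and an SP motif. Mrps16 also counts among the 17 genes with the ETS motif, through another listed start whose stretch is not shown. Over the 67 genes, the median difference between IL-2 and naive cells in log2(FPKM + 1) was 0.72 with and 0.68 without the ETS motif, 0.59 with and 0.73 without the NRF1 core, and 0.85 with and 0.71 without the E-box. It was 0.51 with and 0.73 without the YY1 core, 0.79 with and 0.64 without the SP motif, 0.60 with and 0.79 without CCAAT, and 0.80 with and 0.71 without TATAAA. These are descriptions with no test.

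Genes of this family often share a start region with another gene that is read the opposite way. A protein-coding neighbour on the other strand started within 500 bases of 24 of the 76 genes (31.6%) in the GENCODE annotation, against 14.8% of 9714 protein-coding genes tested and 8.9% of all 21924. Mrpl46 and Mrps11, a large and a small subunit gene, are neighbours of this kind on chromosome 7 (78775341 to 78783089 and 78783131 to 78792988 of GRCm38.p6). These RefSeq spans are apart, but in GENCODE the genes overlap at their starts, so reads there could be shared. Mrpl46 stood at 23.2, 23.5 and 21.9 FPKM in the naive libraries and at 48.1, 44.8 and 45.7 in the IL-2 libraries. Mrps11 stood at 14.3, 14.2 and 15.6 in the naive and 33.8, 33.3 and 37.0 in the IL-2 libraries. Both were higher in every IL-2 library than in every naive one. Other partners were Ndufs6, a complex I subunit, for Mrpl36, the mitochondrial seryl-tRNA synthetase gene Sars2 for Mrps12, and Fau, which encodes a protein of the cytosolic ribosome, for Mrpl49. In the RefSeq annotation the span of 24 genes overlaps that of another gene. Whether reads were assigned by strand is not given in the sources used here, so reads of an overlapping partner could enter their values.

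The summed level of the 76 genes separated the naive, cocktail and IL-2 cells. It was 2649 ± 7.21 FPKM (SD, n = 3) in naive cells, 3385 ± 18.0 in cocktail CD44loCD62L+ cells, 3598 ± 7.17 in cocktail CD44+CD62L- cells, 3615 ± 11.6 in cocktail CD44+CD62L+ cells and 4788 ± 12.1 in IL-2 cells. Libraries of different populations did not overlap, but the CD44+ cocktail populations nearly met. The highest CD44+CD62L- library was at 3606.06 FPKM and the lowest CD44+CD62L+ library at 3606.46. As a share of all FPKM the genes made up 0.350% in naive, 0.484% in cocktail CD44loCD62L+, 0.522% in cocktail CD44+CD62L-, 0.533% in cocktail CD44+CD62L+ and 0.661% in IL-2 cells. The median gene stood at 29.0 FPKM in naive cells, 31.3 in cocktail CD44loCD62L+, 33.5 in cocktail CD44+CD62L-, 35.0 in cocktail CD44+CD62L+ and 45.6 in IL-2 cells. FPKM is relative to the library total, so neither RNA per cell nor the number of cells was measured, and in these bulk samples fewer expressing cells and less RNA per cell cannot be told apart. The median coefficient of variation of a gene between libraries of a population was 2.53% to 2.96%.

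**Figure D1:**
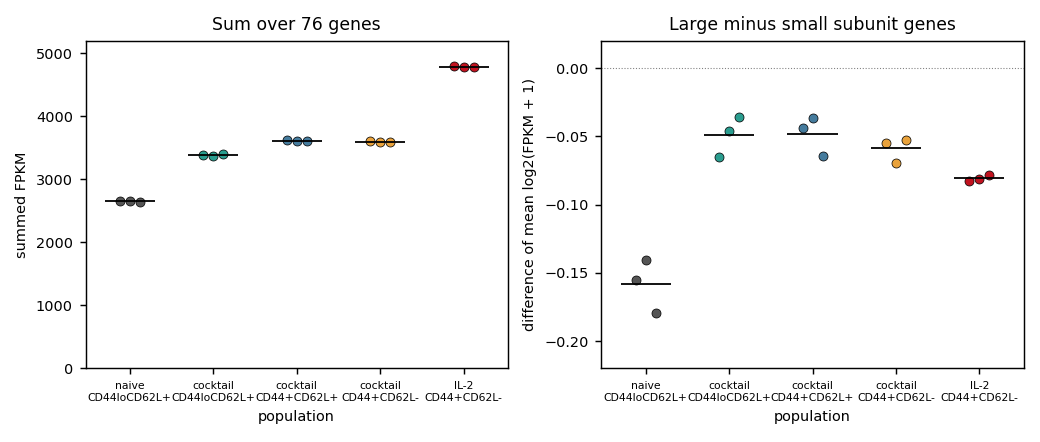
Left, summed FPKM of the 76 genes in each library (points) by population, with the mean as a bar; right, mean log2(FPKM + 1) of the 49 large subunit genes minus that of the 26 small subunit genes. The IL-2 libraries lie highest on the left, near 4788 FPKM, and the naive libraries lie lowest in both panels.

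IL-2 cells had the highest mean for 66 of the 76 genes and naive cells the lowest for 55. The order IL-2, cocktail CD44+CD62L-, cocktail CD44+CD62L+, cocktail CD44loCD62L+ and naive, from high to low, held for 21 genes, and the same order with the CD44+ cocktail populations exchanged held for 16. For 63 genes (82.9%) all IL-2 libraries lay above the 12 other libraries, against 28.5% of all genes tested. For 43 genes (56.6%) all naive libraries lay below the 12 others, against 32.1% of all genes. In the opposite directions, the IL-2 libraries lay below all others for 1 gene, Mrpl24 (background 25.3%), and the naive libraries above all others for 3, Mrpl24, Mrpl38 and Mrps25 (background 33.1%). The balance between the subunits differed as well: large minus small subunit mean log2(FPKM + 1) was -0.16 in naive cells, with libraries from -0.18 to -0.14, and between -0.08 and -0.04 in every library of the cultured cells. The naive libraries thus did not overlap with the 12 others on this measure.

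**Figure D2:**
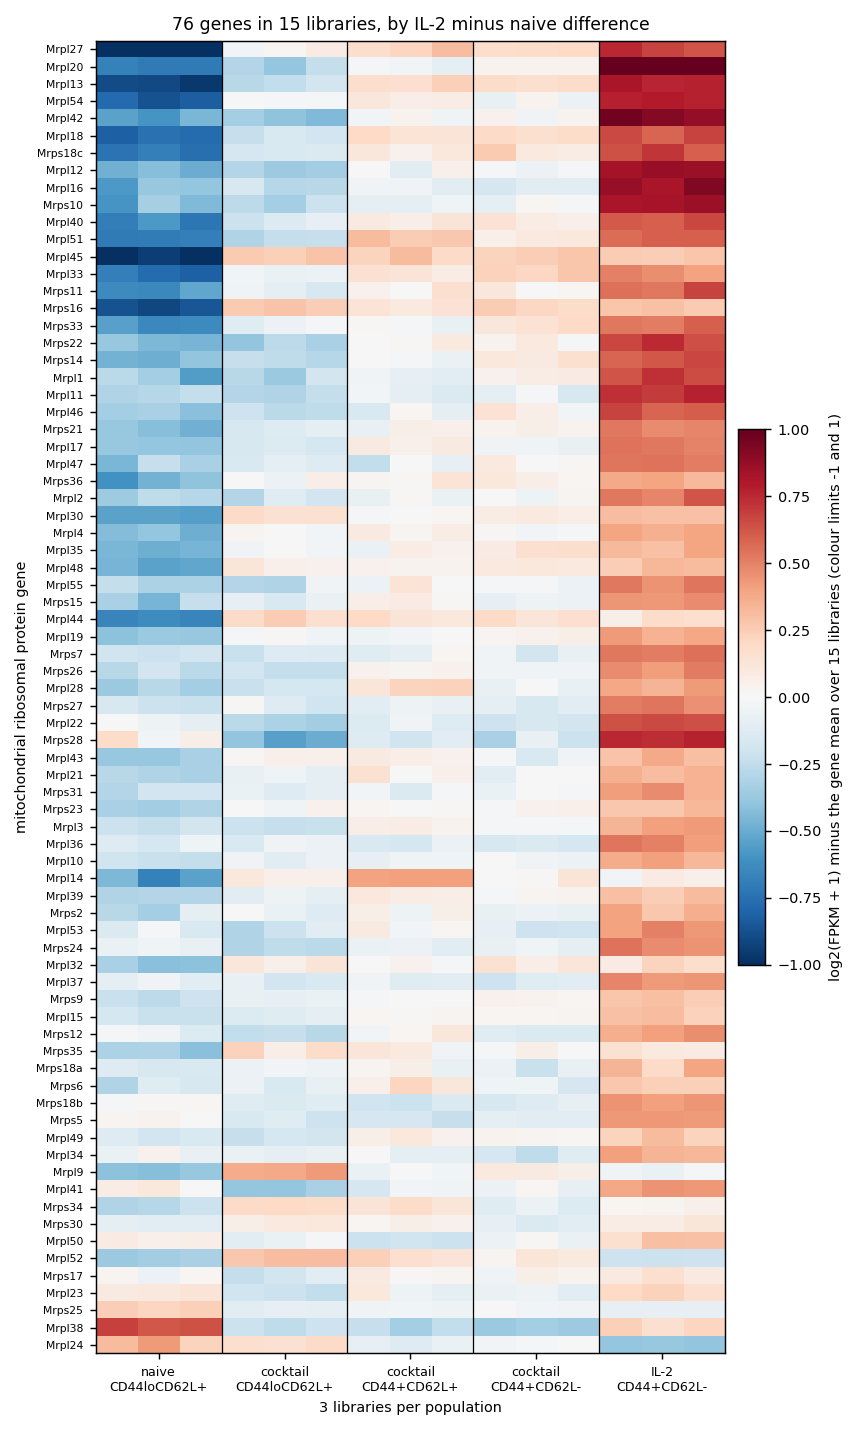
Each row is 1 of the 76 genes and each column 1 of the 15 libraries, grouped by population; colour gives log2(FPKM + 1) minus the mean of that gene over the libraries, with red high and blue low, and rows run from the largest to the lowest IL-2 minus naive difference. The naive block is blue and the IL-2 block red in most rows, while Mrpl24, Mrpl38 and Mrps25 at the bottom run the other way in the naive block.

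Across the populations the most abundant of these genes were Mrpl33 and Mrpl30, of the large subunit, and Mrps16, of the small subunit, all with bacterial counterparts. Mrpl33 had a mean of 109.9 ± 5.26 FPKM (SD, n = 3) in naive and 256 ± 9.13 in IL-2 cells. Mrps16 had 99.2 ± 1.95 in naive and 222 ± 2.62 in IL-2 cells. The least abundant were Mrpl17, Mrpl1 and Mrpl11, also of the large subunit, although each subunit holds a single copy of most of its proteins. Mrpl17 was the lowest in every population, from 2.83 ± 0.0227 FPKM in naive to 6.19 ± 0.116 in IL-2 cells, and its lowest library value, 2.80 FPKM, was the lowest of any of the 76 genes. Mrpl1, a protein of a mobile stalk of the large subunit, stood at 5.61 ± 0.669 in naive and 12.7 ± 0.506 in IL-2 cells, and Mrpl11, of the base of the other stalk, at 6.91 ± 0.170 and 14.9 ± 0.394.

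Genes were tested with limma on log2(FPKM + 1) over all 11242 genes reaching 1 FPKM, and a call of a rise or fall needed a Benjamini-Hochberg adjusted p under 0.05 and a difference of at least 1.5-fold. Differences are given as log2 ± SE on that scale, on which low genes change by less than their FPKM ratio.

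The IL-2 cells were compared with naive cells to measure the whole distance between the resting cells and the cells grown in the standard growth factor. Mitochondrial ribosomal protein genes were higher in the IL-2 cells across both subunits. Of the 76 genes, 49 rose (64.5%, background 28.3%) and 1 fell (1.32%, background 25.3%). The median difference was 0.71, against 0.02 for all genes tested. In the large subunit 33 of 49 rose and 1 fell with a median of 0.78, and in the small subunit 15 of 26 rose and none fell with a median of 0.66. Of the genes with a bacterial counterpart 33 of 46 rose (median 0.78), and of the mitochondria-specific ones 15 of 28 (median 0.62). Among the 52 genes that overlap no other gene in RefSeq, 35 rose and none fell (median 0.80). By GENCODE starts, however, Mrpl13, Mrpl36, Mrpl46 and Mrps11 of these 52 overlap a neighbour. Under quantile normalization 37 of the 76 genes rose and 1 fell, where the background was 23.5% higher and 28.3% lower.

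The largest difference was that of Mrpl27, a large subunit protein near the site of peptide bond formation (chromosome 11, 94653770 to 94661932, overlapping Eme1). Mrpl27 stood at 25.6, 26.5 and 26.9 FPKM in the naive libraries and 99.6, 94.3 and 91.2 in the IL-2 libraries. The cocktail libraries lay between, at 66.5, 66.8 and 67.5 in CD44+CD62L-, 66.4, 68.2 and 73.1 in CD44+CD62L+ and 57.5, 59.6 and 62.3 in CD44loCD62L+ cells. No IL-2 or naive library overlapped with a cocktail library. The IL-2 minus naive difference was 1.81 ± 0.0387, limma adjusted p = 1.06e-14. Mrpl20 (chromosome 4, 155802878 to 155808831), whose bacterial counterpart takes part in assembly of the large subunit, stood at 53.8, 52.5 and 52.6 FPKM in the naive and 173, 174 and 180.0 in the IL-2 libraries. In the cocktail it stood at 88.4, 88.7 and 88.4 in CD44+CD62L-, 85.9, 84.7 and 80.6 in CD44+CD62L+ and 70.5, 65.8 and 72.9 in CD44loCD62L+ libraries. The IL-2 libraries thus lay well apart from all others, and the difference from naive cells was 1.71 ± 0.0319 (limma adjusted p = 2.48e-15). Mrpl13 (chromosome 15, 55534095 to 55557312), another large subunit protein, stood at 36.6, 36.4 and 34.8 FPKM in the naive and 122, 117 and 118 in the IL-2 libraries, a difference of 1.70 ± 0.0267. Its cocktail libraries ran from 56.7 to 81.4 FPKM, with no overlap to either side.

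Mrpl24, a large subunit protein at the mouth of the tunnel through which the new chain leaves, went the other way (chromosome 3, 87918131 to 87923450, overlapping Rrnad1). It stood at 68.5, 74.2 and 64.2 FPKM in the naive libraries, 61.9, 61.2 and 62.9 in cocktail CD44loCD62L+, 51.9, 50.3 and 52.5 in cocktail CD44+CD62L+, 53.8, 54.3 and 54.9 in cocktail CD44+CD62L- and 41.8, 42.1 and 41.7 in the IL-2 libraries. Naive libraries were all the highest and IL-2 libraries all the lowest. Mrpl24 fell by 0.70 on the log2 scale in the IL-2 cells (SE 0.0369, limma adjusted p = 2.74e-10). Mrpl38 and Mrps25, both specific to mitochondria, were also lower in the IL-2 cells but by less than 1.5-fold, with differences of -0.44 ± 0.0298 and -0.32 ± 0.0145. Mrps25 stood at 22.04, 21.6 and 21.99 FPKM in the naive and 17.4, 17.3 and 17.4 in the IL-2 libraries, and overlaps Nr2c2.

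Some members have particular roles. Mrpl12, which forms the stalk that recruits translation factors and also binds the mitochondrial RNA polymerase, rose in the IL-2 cells from 63.1 ± 1.63 to 159 ± 1.97 FPKM (difference 1.32 ± 0.0328). Mammals have 3 homologues of the bacterial protein S18, of which Mrps18c and Mrps18b sit in the small and Mrps18a in the large subunit. In the counts by origin Mrps18c stands with the bacterial counterparts, Mrps18b with the mitochondria-specific genes and Mrps18a with neither. This placement was a choice, since all 3 are S18 homologues. Mrps18c rose by 1.38 ± 0.0438, from 61.4, 63.8 and 60.6 to 161, 170.2 and 157 FPKM. Mrps18b, at 39.4, 40.1 and 39.9 and 54.5, 53.0 and 54.3 FPKM, and Mrps18a, at 25.9, 25.3 and 25.5 and 36.1, 32.5 and 37.7, differed by 0.43 ± 0.0207 and 0.45 ± 0.0529, under the minimum fold. Mrps30, a large subunit protein despite its name, had the smallest range of the 76 genes over the populations, 0.20 on the log2 scale, with 28.0 ± 0.241 FPKM in naive and 32.2 ± 0.573 in IL-2 cells. Mrps17, which binds the small subunit RNA, and Mrps25 followed with ranges of 0.29 and 0.33. Mrps36, the dehydrogenase subunit, rose from 33.6 ± 2.53 to 61.7 ± 1.70 FPKM, and pseudogene copies of it are annotated that could share its reads, as they are for Mrpl23 and Mrpl48.

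**Figure D3:**
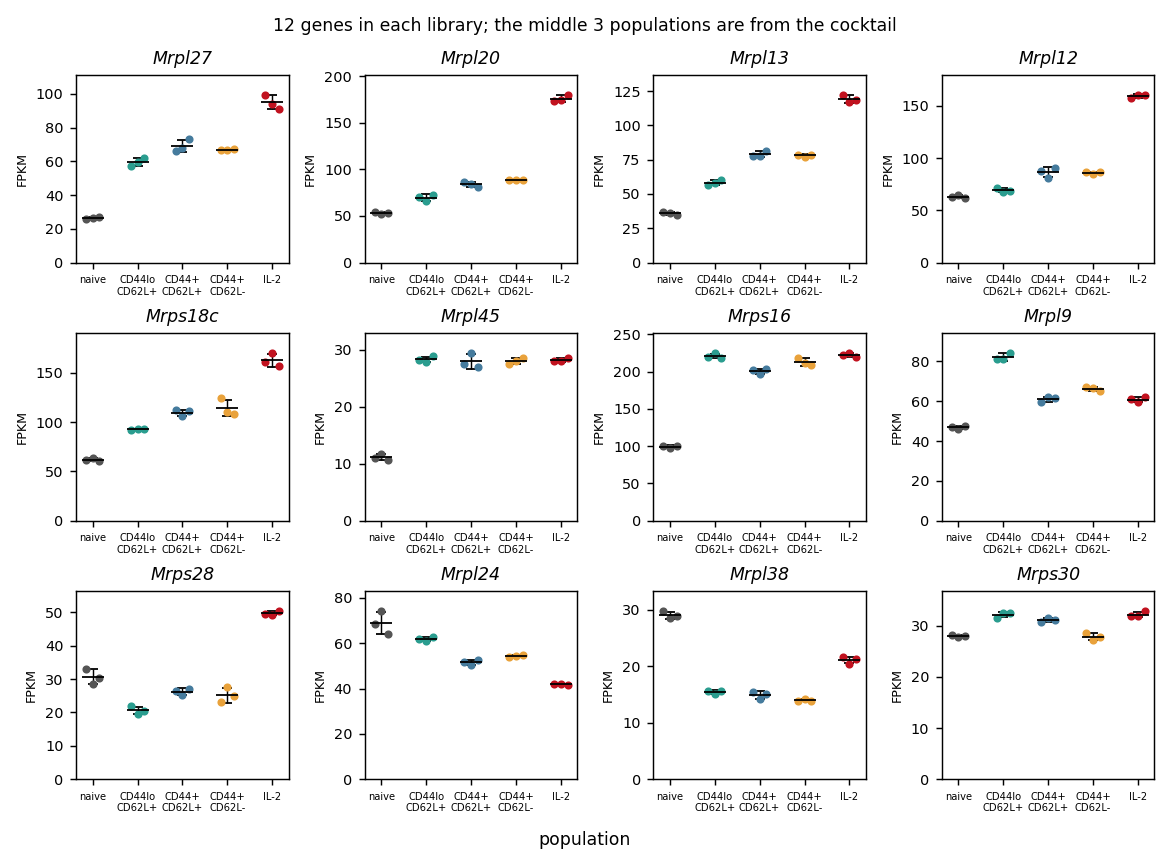
FPKM of 12 genes in each library (points), with mean and SD as bars, by population from naive on the left to IL-2 on the right; each panel has its own axis from 0. Mrpl27, Mrpl20, Mrpl13, Mrpl12 and Mrps18c rise toward the IL-2 cells, Mrpl45 and Mrps16 stand at similar levels in all cultured cells, Mrpl24 falls toward the IL-2 cells and Mrpl38 is lowest in the cocktail cells.

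Each cocktail population was compared with the same naive libraries, so these comparisons share their control. In the cocktail CD44+CD62L- cells 18 of the 76 genes rose, 23.7% and so near the background of 23.8%, and 1 fell (1.32%, background 20%). In the CD44+CD62L+ cells 14 rose (18.4%, background 23.7%) and 1 fell (background 19.8%), and in the CD44loCD62L+ cells 11 rose (14.5%, background 19.9%) and 1 fell (background 16.1%). The median differences were 0.30, 0.36 and 0.17, against medians of 0.00, 0.00 and -0.02 for all genes. The share that rose was thus no higher than among all genes, while most differences were positive and small: with no minimum fold 55 (72.4%), 61 (80.3%) and 48 (63.2%) genes were higher, where the background was 45.1%, 45.2% and 43.2%. In the same order 11, 9 and 13 were lower, where the background was 45.5%, 45.5% and 45.4%. The gene called lower was Mrpl38 in all 3 comparisons.

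Mrpl45, a large subunit protein that anchors the ribosome at the inner membrane, had similar levels in all cultured cells (chromosome 11, 97314923 to 97329920). It stood at 11.04, 11.7 and 10.7 FPKM in the naive libraries, 28.3, 27.8 and 28.9 in cocktail CD44loCD62L+, 27.5, 29.5 and 27.0 in cocktail CD44+CD62L+, 27.5, 28.0 and 28.6 in cocktail CD44+CD62L- and 28.1, 28.0 and 28.6 in the IL-2 libraries. All 12 cultured libraries lay above the naive ones and the cultured populations overlapped each other. The cocktail minus naive differences were 1.27 ± 0.0336, 1.25 ± 0.0336 and 1.26 ± 0.0336. Mrps16, a small subunit protein with a bacterial counterpart (chromosome 14, 20391222 to 20393634), was also higher in every cultured library than in every naive one. Its libraries stood at 99.7, 97.0 and 101 FPKM in naive, 220.0, 224 and 218 in cocktail CD44loCD62L+, 202, 196 and 203 in cocktail CD44+CD62L+, 219, 212 and 208 in cocktail CD44+CD62L- and 222, 225 and 219.7 in IL-2 cells. The cocktail minus naive differences of Mrps16 were 1.15 ± 0.0197, 1.01 ± 0.0197 and 1.10 ± 0.0197. Mrpl27, with 1.15 ± 0.0387, 1.36 ± 0.0387 and 1.31 ± 0.0387 in the same order, also rose by over 2-fold in each, and Mrpl13 did so in both CD44+ populations with 1.11 ± 0.0267 and 1.10 ± 0.0267.

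Mrpl38, a mitochondria-specific protein of the large subunit (chromosome 11, 116131817 to 116138868), was highest in naive and lowest in cocktail cells. It stood at 29.7, 28.5 and 28.8 FPKM in the naive libraries, 21.5, 20.4 and 21.2 in the IL-2, 15.5, 15.02 and 15.6 in cocktail CD44loCD62L+, 15.3, 14.1 and 15.1 in cocktail CD44+CD62L+ and 13.8, 14.2 and 13.9 in cocktail CD44+CD62L- libraries. Neither the naive nor the IL-2 libraries overlapped with any other population. The differences from naive cells were -0.87 ± 0.0298 in the CD44loCD62L+, -0.92 ± 0.0298 in the CD44+CD62L+ and -1.01 ± 0.0298 in the CD44+CD62L- cells (limma adjusted p = 5.52e-13 for the last). Other genes at the low end were Mrpl24, Mrps28, Mrpl50 and Mrpl41, none of which fell by 1.5-fold. Mrps28 of the small subunit stood at 33.2, 28.6 and 30.4 FPKM in naive, 21.8, 19.7 and 20.3 in cocktail CD44loCD62L+ and 49.6, 49.3 and 50.4 in IL-2 libraries, and overlaps predicted genes. Mrpl41, a mitochondria-specific large subunit protein, stood at 10.5, 10.9 and 10.04 in naive, 7.43, 7.41 and 7.78 in cocktail CD44loCD62L+ and 13.4, 14.0 and 13.8 in IL-2 libraries. For both genes naive cells thus lay between the cocktail CD44loCD62L+ and the IL-2 cells. Mrpl50 differed by -0.27 ± 0.0356 between cocktail CD44+CD62L+ and naive cells.

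The roles named above gave different patterns in the cocktail. Mrps18c rose in both CD44+ populations, by 0.87 ± 0.0438 in CD44+CD62L- and 0.82 ± 0.0438 in CD44+CD62L+ cells. Its difference in CD44loCD62L+ cells was 0.57 ± 0.0438, just under the minimum fold. Mrps18b lay slightly below naive cells, at -0.13 ± 0.0207 in CD44+CD62L- cells, and Mrps18a at 0.03 ± 0.0529 (limma adjusted p = 0.612). Mrpl12 differed from naive cells by 0.44 ± 0.0328 in CD44+CD62L-, 0.45 ± 0.0328 in CD44+CD62L+ and 0.13 ± 0.0328 in CD44loCD62L+ cells, none of them 1.5-fold. Mrps30 and Mrps36 did not pass the minimum fold in any cocktail population.

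The difference between the cultures was measured within a single sort gate, in CD44+CD62L- cells of the cocktail against those of IL-2. Mitochondrial ribosomal protein genes were lower in the cocktail cells. Of the 76 genes, 17 fell (22.4%, background 10.8%) and none rose (background 11.2%). With a pseudocount of 5 the number that fell was 10, where the background was 6.21%. Under quantile normalization 13 fell and none rose, where the background was 9.99% lower and 10.6% higher. Without a minimum fold limma gave 4 genes higher (background 40.6%) and 67 lower (background 43.7%). The counts were the same at an unadjusted p under 0.05 (background 40.9% and 44%). The median difference was -0.46, against -0.01 for all genes. In the large subunit 12 of 49 fell (median -0.43) and in the small subunit 5 of 26 (median -0.51).

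The lowest of these differences were those of Mrpl16, Mrpl20 and Mrps28. Mrpl16, a large subunit protein near the site of peptide bond formation (chromosome 19, 11770415 to 11774956), stood at 21.4, 22.4 and 22.3 FPKM in the cocktail CD44+CD62L- and 45.0, 43.3 and 46.9 in the IL-2 libraries, a difference of -1.0 ± 0.0507 (limma adjusted p = 4.12e-10). Its naive libraries were at 15.9, 18.4 and 18.3. The cocktail libraries were therefore closer to the naive than to the IL-2 libraries. Mrpl20 fell by 0.98 on the log2 scale (SE 0.0319), and Mrps28, at 22.97, 27.5 and 24.9 against 49.6, 49.3 and 50.4 FPKM, fell by 0.96 (SE 0.0616). Mrpl12 fell as well, from 159 ± 1.97 to 85.7 ± 1.22 FPKM. The S18 homologues Mrps18b, Mrps18c and Mrps18a differed by -0.56 ± 0.0207, -0.51 ± 0.0438 and -0.43 ± 0.0529, all under the minimum fold. Mrpl24, Mrpl52 and Mrpl9 stood at the upper end, with 0.37 ± 0.0369, 0.29 ± 0.0269 and 0.12 ± 0.0219. Mrpl52, a mitochondria-specific large subunit protein, was at 151, 162 and 159 FPKM in the cocktail and 128, 128 and 129 in the IL-2 libraries, with no overlap.

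**Figure D4:**
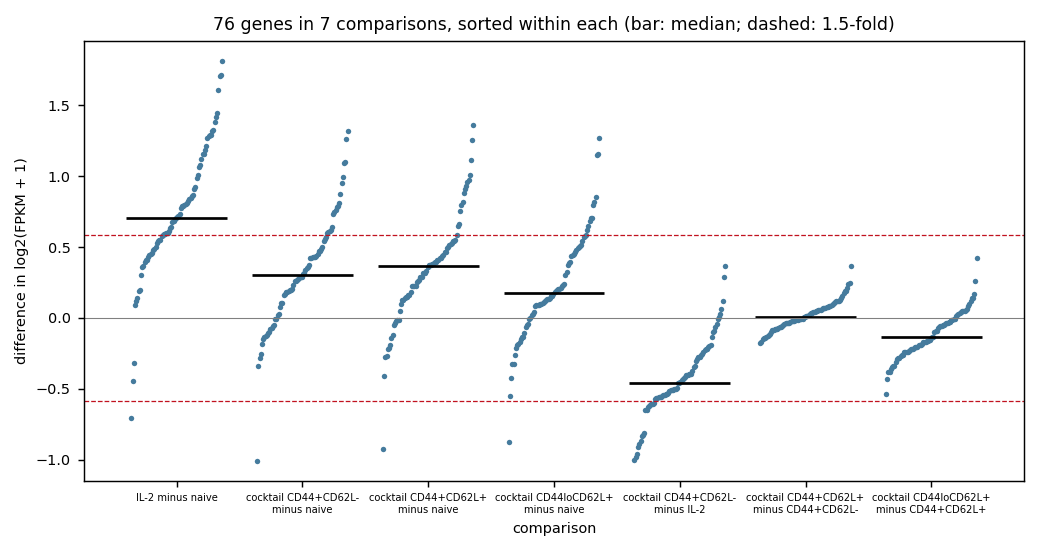
Differences in log2(FPKM + 1) of the 76 genes in each of 7 comparisons, sorted within each; the black bar is the median and the dashed lines mark 1.5-fold. The median is 0.71 for IL-2 minus naive and -0.46 for cocktail CD44+CD62L- minus IL-2, and no gene crosses the dashed lines in the last 2 comparisons.

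Within the cocktail the differences were small. Between the CD44+CD62L+ and CD44+CD62L- cells none of the 76 genes passed the 1.5-fold minimum in limma, where the background was 0.294% higher and 0.338% lower. Without a minimum fold 21 were higher and 13 lower (background 24.1% and 24.3%). At an unadjusted p under 0.05 the counts were 22 and 18 (background 27.2% and 27.3%). The median difference was 0.01. Mrpl14, a large subunit protein at the face toward the small subunit, had the highest difference, 0.36 ± 0.0494. It stood at 55.8, 56.1 and 56.1 FPKM in CD44+CD62L+ and 41.8, 42.3 and 45.9 in CD44+CD62L- libraries, without overlap, and overlaps Tmem63b. Mrps34 and Mrpl28 came next with 0.25 ± 0.0247 and 0.24 ± 0.0342. At the low end were Mrps33, Mrpl50 and Mrps14 with -0.18 ± 0.0361, -0.17 ± 0.0356 and -0.15 ± 0.0297. Mrpl12, Mrps36, Mrps18c and Mrps18a overlapped between these populations, with limma adjusted p between 0.0767 and 0.946.

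Between the CD44loCD62L+ and CD44+CD62L+ cells, both CD62L+, none passed the 1.5-fold minimum either (background 2.55% higher and 6.11% lower). Small differences pointed mostly downward in the CD44loCD62L+ cells: without a minimum fold 8 genes were higher (background 36.5%) and 45 lower (background 36.9%). At an unadjusted p under 0.05 the counts were 9 and 45 (background 37.4% and 37.8%). The median difference was -0.14, against 0.00 for all genes. Mrpl51, a mitochondria-specific large subunit protein, had the lowest difference, -0.54 ± 0.0232, with 25.5, 26.8 and 27.0 FPKM in CD44loCD62L+ and 39.7, 38.0 and 38.5 in CD44+CD62L+ libraries. Mrpl13 followed with -0.43 ± 0.0267 and Mrpl42 with -0.38 ± 0.0376. None of these libraries overlapped. Mrpl9, a large subunit protein with a bacterial counterpart, had the highest difference, 0.42 ± 0.0219. It stood at 80.9, 81.2 and 84.2 FPKM in CD44loCD62L+ libraries, above all 12 others, against 59.5, 62.03 and 61.3 in cocktail CD44+CD62L+, 66.9, 66.5 and 64.99 in cocktail CD44+CD62L-, 60.9, 59.4 and 62.02 in IL-2 and 46.8, 46.1 and 47.8 in naive libraries. Mrpl24 and Mrpl30 were next with 0.26 ± 0.0369 and 0.17 ± 0.0132.

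Genes that work with these proteins were counted in the same fits. In IL-2 against naive cells, 4 of 7 further subunits that carry other names rose and none fell (median 0.61). They were Aurkaip1 (96.9 ± 0.781 against 46.2 ± 0.437 FPKM), Chchd1 (135 ± 2.89 against 66.1 ± 1.29 FPKM), Gadd45gip1 and Mrp63, while Dap3, a small subunit protein also linked to cell death, stood at 15.8 ± 0.267 against 17.3 ± 0.150 FPKM. Nuclear genes of oxidative phosphorylation, whose complexes take up the products of the mitoribosome, rose in 61 of 78 cases and fell in 2 (median 0.90), and under quantile normalization 37 rose and 3 fell (median 0.54). Of 23 import and chaperone genes, 12 rose and none fell (median 0.64), among them the inner membrane translocase genes Timm17a (80.1 ± 1.44 against 29.8 ± 0.280 FPKM) and Timm50 (62.1 ± 1.18 against 24.8 ± 0.327 FPKM). Cytosolic ribosomal protein genes, many of which have near-identical copies elsewhere in the genome, had a median of -0.44, with 3 of 79 risen and 27 fallen (5 and 17 under quantile normalization, with a median of -0.18). The background for these counts was 28.3% higher and 25.3% lower, and under quantile normalization 23.5% and 28.3%.

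Factors that act on the mitoribosome rather than form it differed less from all genes. The background was again 28.3% higher and 25.3% lower, and no list in this paragraph had a larger share risen or fallen. Of 15 translation factors 3 rose and none fell (median 0.16). They included the elongation factors Gfm1, which moves the ribosome along the message (36.9 ± 0.897 against 18.2 ± 0.307 FPKM), and Tsfm, which recharges the tRNA carrier (28.8 ± 0.569 against 14.7 ± 0.197 FPKM). Of 24 assembly factors 3 rose and 5 fell (median -0.05). Ddx28, an RNA helicase of large subunit assembly, rose (19.97 ± 0.416 against 5.94 ± 0.263 FPKM), as did Mpv17l2 (37.0 ± 0.893 against 19.7 ± 1.2 FPKM), whereas Mettl17 (12.1 ± 0.371 against 28.2 ± 1.33 FPKM) and the ribosomal RNA methyltransferase gene Mrm1 (7.27 ± 0.0495 against 15.5 ± 0.203 FPKM) fell. Of 19 mitochondrial tRNA synthetase genes 5 rose and 3 fell (median -0.03), and the highest, Gars and Kars, encode enzymes that serve the cytosol as well. Of 18 genes of mitochondrial DNA and RNA maintenance none rose and 3 fell, among them the DNA polymerase gene Polg (12.2 ± 0.402 against 27.3 ± 0.340 FPKM) and the RNA polymerase gene Polrmt (10.4 ± 0.0885 against 17.6 ± 0.193 FPKM). Of 13 regulators of mitochondrial growth 2 rose and 2 fell. The risen ones were Mycn (8.77 ± 0.404 against 0.00960 ± 0.00831 FPKM) and C1qbp (173 ± 1.39 against 84.1 ± 1.09 FPKM), and the fallen ones Ppargc1b, a coactivator, and Max, the partner of Myc proteins (32.6 ± 0.446 against 73.9 ± 0.935 FPKM). Of the 4 genes that insert new chains into the membrane or act on them as they emerge, 1 rose, Cox18 (18.5 ± 0.430 against 9.59 ± 0.620 FPKM).

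**Figure D5:**
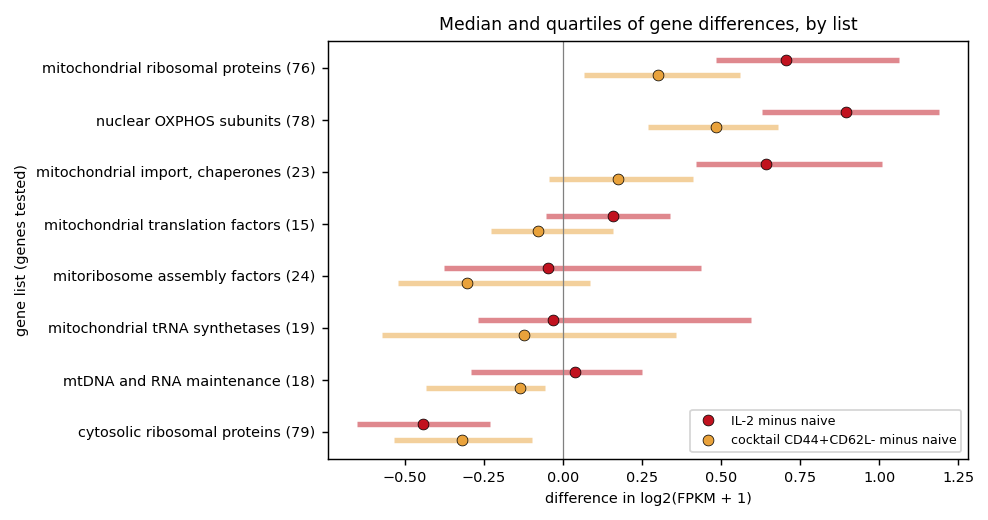
Median (point) and quartiles (bar) of the differences in log2(FPKM + 1) over the genes of each list, with the number of genes tested in brackets; red is IL-2 minus naive and orange is cocktail CD44+CD62L- minus naive. The 76 mitochondrial ribosomal protein genes (medians 0.71 and 0.30) lie beside the oxidative phosphorylation genes (0.90 and 0.48), and the cytosolic ribosomal protein genes lie below 0 in both.

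In the cocktail CD44+CD62L- cells against the IL-2 cells, 22 of the 78 oxidative phosphorylation genes fell and 1 rose (median -0.41), and 8 of the 23 import and chaperone genes fell and none rose (median -0.49). Under quantile normalization 10 of the oxidative phosphorylation genes fell and 2 rose (median -0.24). The background of this comparison was 11.2% higher and 10.8% lower, and under quantile normalization 10.6% and 9.99%. Phb, a prohibitin of the inner membrane, fell (52.6 ± 0.304 against 108 ± 0.707 FPKM). Of the 15 translation factors Gfm1 and Qrsl1 fell and none rose. Of the 4 insertion genes 3 fell, with Letm1 the lowest (16.4 ± 0.273 against 31.2 ± 0.387 FPKM), and none rose. Cytosolic ribosomal protein genes had a median of 0.12, opposite in sign to that of the mitochondrial ones, with 5 of 79 fallen, a smaller share than the background of 10.8%, and none risen. In the cocktail CD44loCD62L+ against CD44+CD62L+ cells the medians were 0.19 for the cytosolic (0.10 under quantile normalization) and -0.14 for the mitochondrial ribosomal protein genes (-0.086). Of 19 mitochondrial tRNA synthetase genes 2 fell there and none rose (background 6.11% lower and 2.55% higher). The leucyl-tRNA synthetase gene Lars2 was among those that fell (96.1 ± 0.343 against 158 ± 0.409 FPKM). Genes of the mitochondrial genome itself were not analysed here.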

How the data were processed

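The table used held normalized FPKM values as deposited by the authors, 1 column for each of 15 libraries. TopHat2 2.0.9, Cuffdiff 2.1.1 and the build mm10 are named in the submitters' processing notes. Annotation, settings and use of strand: not given in the sources used here. Of 12140 ratios between low values of different libraries, 55.5% lay within 0.05 of a whole number (10% by chance), so low values carry part of the steps of whole reads. The most frequent ratio to the first IL-2 library ran from 0.804 to 1.01. Counts were not rebuilt from these ratios, and the depth of each library is unknown.

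The 11242 genes with a population mean of at least 1 FPKM were modelled as log2(FPKM + 1) by population over the 15 libraries (limma 3.58.1, R 4.3.3, mean-variance trend). A call needed a Benjamini-Hochberg adjusted p under 0.05 in its comparison, of which there were 7, and 1.5-fold. With 3 libraries against 3, the smallest two-sided p of an exact permutation test is 0.1. Simulated log values served to check the limma calls, for cocktail CD44+CD62L- against IL-2 cells only. The list counts, motif searches and plots had no such check. The genes and lists were chosen with earlier results of these data known. Named genes were the 3 highest and 3 lowest differences per comparison (5 FPKM or more in either population), every gene called at 2-fold where 10 or fewer were, the 3 largest and smallest ranges, the 3 highest and lowest levels, 6 genes chosen for their role, and up to 4 genes per other list. Genes outside this rule were named after their values were seen. Promoters and spans are from RefSeq (GRCm38.p6), neighbours from GENCODE M21. All 76 genes matched RefSeq. Other settings tried were a pseudocount of 0.1 or 5, a level minimum of 0 or 5 FPKM, scaling by median ratios or quantiles, fitting only the 6 libraries of a comparison, a replicate block, no trend, 2-fold or no fold minimum, and each library left out. Plots used matplotlib 3.10.9 (Python 3.11.15).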

Additional observations from a re-analysis of the deposited data

How the results depend on the processing

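Comparisons are named IL-2/naive, C-/naive, C+/naive, Clo/naive, C-/IL-2, C+/C- and Clo/C+, where C-, C+ and Clo are the cocktail CD44+CD62L-, CD44+CD62L+ and CD44loCD62L+ cells. With a 2-fold minimum, the genes higher were 21 in IL-2/naive, 4 in C-/naive, 4 in C+/naive and 3 in Clo/naive. In C-/naive 1 gene was lower, Mrpl38 (background 8.59%). The count of genes lower was 0 in IL-2/naive, C+/naive, Clo/naive and C-/IL-2 (background 13.7%, 8.44%, 6.11% and 3.2%). Of all genes tested, 17.6%, 13.9%, 14.4% and 11.6% were higher at 2-fold in the comparisons with naive cells, against 27.6%, 5.26%, 5.26% and 3.95% of the 76, so the cocktail shares lay below those of all genes. With no minimum fold, 73 genes were higher (background 46.9%) and 3 lower (background 44.9%) in IL-2/naive. In C-/naive 55 were higher and 11 lower (background 45.1% and 45.5%), and in C+/naive 61 and 9 (45.2% and 45.5%). In Clo/naive the counts were 48 and 13 (43.2% and 45.4%), and in C-/IL-2 4 and 67 (40.6% and 43.7%). They were 21 and 13 in C+/C- (24.1% and 24.3%) and 8 and 45 in Clo/C+ (36.5% and 36.9%). With a pseudocount of 0.1 the median differences were 0.73 in IL-2/naive and 0.38 in C+/naive. With a pseudocount of 5 they were 0.59 in IL-2/naive, 0.26 in C-/naive, 0.30 in C+/naive, 0.14 in Clo/naive, -0.38 in C-/IL-2 and -0.12 in Clo/C+, and 10 genes were lower in C-/IL-2, against 17. Quantile normalization moved the median of all genes to -0.11 in C-/naive and C+/naive, and the medians of the 76 genes were then 0.58 in IL-2/naive, 0.27 in C-/naive, 0.30 in C+/naive, -0.35 in C-/IL-2 and -0.086 in Clo/C+. Causes of these shifts were not tested.

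Leaving out each library in turn gave medians of 0.70 to 0.72 in IL-2/naive, 0.29 to 0.32 in C-/naive, 0.35 to 0.36 in C+/naive, 0.16 to 0.19 in Clo/naive, -0.14 to -0.12 in Clo/C+ and -0.0043 to 0.019 in C+/C-, below 0 only without C+ replicate 3. The count of genes lower in Clo/naive ran from 1 to 2, with 2 without Clo replicate 1 or without naive replicate 2. The count of genes higher there was 11 with all libraries and 12 to 13 with a library left out. It was 12 with scaling by median ratios or quantiles. Of named genes, 10 values near 0 changed sign and none of them was called. In Clo/C+ under quantile normalization Mrps18a was at 0.0083 and Mrps36 at 0.0055. Leaving out libraries put Mrps18a between -0.0025 and 0.081 in C-/naive, below 0 without C- replicate 1, and Mrps30 between -0.024 and 0.0078, above 0 without C- replicate 2. In C+/C-, Mrps18c ran from -0.093 to 0.0033, above 0 without C- replicate 1, and Mrpl12 from -0.023 to 0.054, below 0 without C- replicate 2 or C+ replicate 3. Mrps36 ran from -0.045 to 0.017 there, above 0 without C- replicate 1 or C+ replicate 1 or 2. The other values of named genes under these settings were on the same side of the threshold in 1387 cases, newly past it in 55 and no longer past it in 10.

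Adding the replicate number as a block left every count of the 76 genes as it was, for example 49 higher in IL-2/naive and 17 lower in C-/IL-2. The numbers do not pair the libraries: deviations of same-numbered libraries correlated at -0.24 to 0.18 (30 pairs), and 3 of 15 libraries correlated best with their own number.

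The libraries are described as technical replicates, so no spread between mice or cultures is known. FPKM carries no depth, no total RNA and no strand. Markers of other cell types and of CD8 T cells differed between the populations.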
